A study of Homo sapiens with 6 samples.

Results

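Chromatin accessibility was examined at 8 genes that encode the menin-MLL1 complex and the subunits it shares with related H3K4 methyltransferase complexes, namely MEN1, KMT2A, KMT2B, PSIP1, ASH2L, RBBP5, WDR5 and DPY30. They were taken by name from the 20007 protein-coding genes of the annotation, together with every accessible site within 1 kb of one of their transcription start sites, in the gene body or within 10 kb of it. This gave 42 of the 166021 accessible sites found in the series, where a site is the union of overlapping peak regions from the libraries. The libraries were ATAC-seq of HLF cells, an established human liver cancer line, treated with DMSO (vehicle) or with 5 μM SNDX-5613 (revumenib), with 3 libraries in each group. SNDX-5613 is a small molecule that occupies the pocket of menin bound by MLL1 and so blocks their interaction. No allele or transgene distinguished the groups, and all 6 libraries carried the same batch label. Treatment lasted 24 h by the labels, whereas the methods of the study describe 4 days for this dose, so the duration is uncertain. In the methods of the study a replicate is 1 dish whose cells were divided between drug and vehicle, while the labels do not tie a replicate number to a dish. The p-values therefore measure the spread between dishes of a single line.

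MLL1 (the product of KMT2A) and MLL2 (the product of KMT2B) are methyltransferases that place H3K4me3, a mark of active promoters. Menin, encoded by MEN1, binds the amino end of both enzymes and forms with them a surface for LEDGF, the chromatin reader encoded by PSIP1, which helps to hold the complex on chromatin. WDR5, RBBP5, ASH2L and DPY30 form the WRAD core, on which the catalytic domain depends for full activity and which is shared by all members of the COMPASS family. Menin acts as a tumor suppressor in endocrine tissue and as a cofactor of MLL1 fusion proteins in leukemia. The comparison below asks whether accessibility at the genes for the drug's own target complex differed between treated and vehicle cells.

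The DNA under the accessibility summit is shown for MEN1, whose promoter ranked highest of the 8, for KMT2A, the catalytic partner of menin, for KMT2B, the only promoter at which the groups did not overlap when ranked by -log10 p, and for RBBP5, which ranked next to MEN1. Sequences are from hg38, 5′ to 3′ on the strand of the gene, and hold no annotated exon. The MEN1 stretch is chr11:64810687-64810766, minus strand, upstream of the summit. The others are 201 bp centred on the median summit, at chr11:118436154-118436354 (plus strand) for KMT2A, chr19:35717561-35717761 (plus strand) for KMT2B and chr1:205122234-205122434 (minus strand) for RBBP5. Capitals mark the motifs searched, which were the NF-Y core CCAAT, the GC box GGGCGG (on the other strand CCGCCC) and the ETS sequence CCGGAAG, each on both strands.
MEN1: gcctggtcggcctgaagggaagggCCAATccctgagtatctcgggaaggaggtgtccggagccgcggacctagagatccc
KMT2A: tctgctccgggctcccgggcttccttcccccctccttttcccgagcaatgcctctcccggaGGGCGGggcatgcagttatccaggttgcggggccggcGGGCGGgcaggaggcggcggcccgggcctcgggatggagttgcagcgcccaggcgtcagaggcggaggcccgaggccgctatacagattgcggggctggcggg
KMT2B: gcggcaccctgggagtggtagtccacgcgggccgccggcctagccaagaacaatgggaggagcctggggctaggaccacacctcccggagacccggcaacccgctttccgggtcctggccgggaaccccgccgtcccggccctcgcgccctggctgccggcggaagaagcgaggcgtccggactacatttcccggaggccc
RBBP5: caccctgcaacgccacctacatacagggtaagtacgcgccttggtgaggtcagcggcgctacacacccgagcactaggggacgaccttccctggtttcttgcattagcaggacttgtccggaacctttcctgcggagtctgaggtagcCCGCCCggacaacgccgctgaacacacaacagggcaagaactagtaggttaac

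The CCAAT core, which is bound by the trimeric factor NF-Y, was found within 100 bp of the median summit at 1 of the 8 promoters, MEN1, against 31.8% of the 12955 promoter sites with a peak in all 6 libraries. At MEN1 it starts at -191 bp from the canonical start site (negative distances are upstream) and is centred at -74 bp from the median summit. A GC box was present at 5 of 8 promoters (MEN1, KMT2A, PSIP1, RBBP5 and WDR5), against 65.0% of promoter sites. KMT2A holds 2 copies, starting at -277 and -240 bp, and the second is centred 1 bp from its median summit. The MEN1 copy starts at -36 bp and lies outside the stretch shown. The ETS sequence was found at 0 of 8, against 15.4% of promoter sites. GC content of these windows ran from 57.2% at PSIP1 and 58.2% at RBBP5 to 73.1% at KMT2A, around a median of 67.7% over all promoter sites. A match describes letters in the window and not binding.

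In the GENCODE release 44 annotation of hg38, MEN1 (ENSG00000133895.19) lies on the minus strand at chr11:64803510-64811294 and KMT2A (ENSG00000118058.25) on the plus strand at chr11:118436456-118526832. KMT2B (ENSG00000272333.8) lies on the plus strand at chr19:35717973-35738880 and PSIP1 (ENSG00000164985.15) on the minus strand at chr9:15464066-15510995. Of the WRAD genes, ASH2L (ENSG00000129691.16) is at chr8:38105493-38144076, plus strand, and RBBP5 (ENSG00000117222.14) at chr1:205086142-205122015, minus strand. WDR5 (ENSG00000196363.10) is at chr9:134135365-134159968, plus strand, and DPY30 (ENSG00000162961.14) at chr2:31867809-32039805, minus strand. The annotated body of DPY30 is long because 1 of its 7 transcripts runs across the neighbouring gene MEMO1, while its canonical transcript covers chr2:32023905-32039805.

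The markers of the cells were as follows. All 5 mesenchymal genes examined (VIM, ZEB1, CDH2, AXL, TEAD1) had a promoter peak in 6 of 6 libraries, while 0 of 5 hepatocyte genes did, with ALB, APOA1 and HNF4A at 0 libraries, FOXA2 at 3 and TTR at 5. Of these hepatocyte markers, ALB, APOA1 and HNF4A thus lacked a called promoter peak in this liver tumor line. TTR and FOXA2 had a peak in some libraries. The 4 blood genes (PTPRC, CD3E, CD79A, SPI1) had no promoter peak in any library. SNDX-5613 replicate 3 stood apart from the others, with 40568 peak regions against 88026 to 113675. Its genome-wide background pileup (reads stacked over a position, recovered from the fold and p of each peak) was 0.211 against 0.997 to 1.51, or 16.2% of the median of the other 5. It is a shallow library, and values at the members are therefore given as ranks within a library, and with and without it where it matters.

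The promoters of all 8 genes were accessible in every library. A site centred on or near a start site of the gene had a peak in 6 of 6 libraries at 8 of 8 genes, against 64.5% of all protein-coding genes, and this also held when each library was limited to its 40568 strongest regions. Each site was ranked within its library by the -log10 p of its strongest summit among the 33405 sites that had a peak in all 6 libraries, and the rank is given as a percentile. Over the 8 leading promoter sites the median of the mean percentiles was 81.4, beside 80.8 over the leading promoters of the 12908 protein-coding genes that had one. The median of the 8 ran from 79.1 to 83.8 in single libraries, so the group as a whole sat at the level of a typical active promoter in vehicle and in drug. Because the assay pools cells, a larger share of cells with an open promoter and a more open promoter in each cell cannot be told apart.

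**Figure D1:**
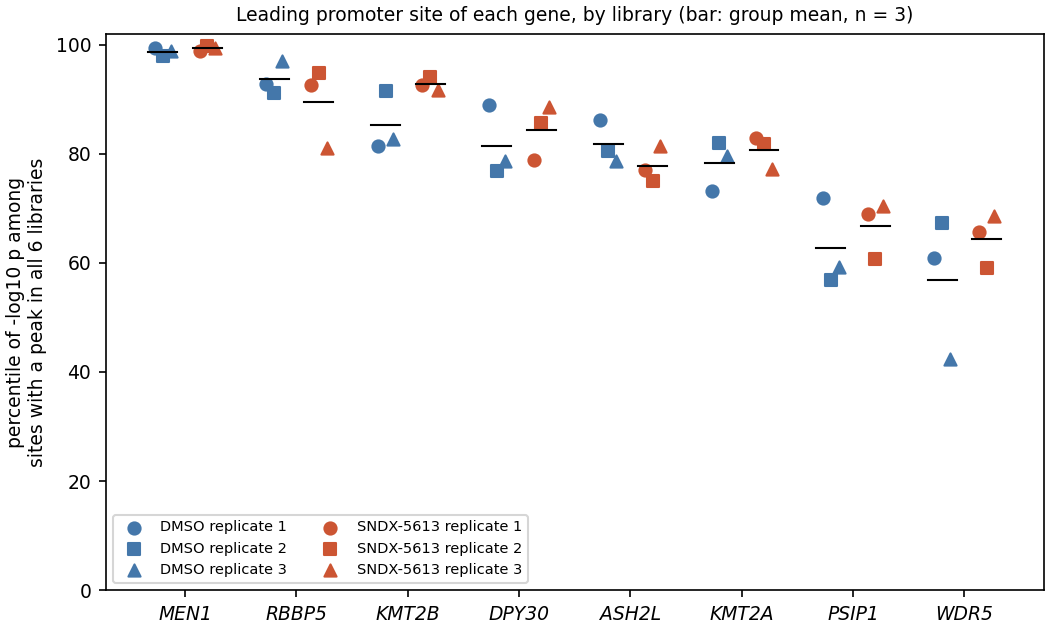
Percentile of -log10 p (vertical axis, linear) of the leading promoter site of each gene in each of the 6 libraries, with DMSO in blue, SNDX-5613 in red, symbols for replicate number and black bars for group means (n = 3). MEN1 lies between 98.0 and 99.8, WDR5 and PSIP1 lie lowest, and the groups overlap at every gene except KMT2B on this measure.

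The MEN1 promoter was among the strongest in the genome. At chr11:64810364-64811044 it reached percentiles of 99.4, 98.0 and 98.8 in DMSO replicates 1 to 3 and 98.9, 99.8 and 99.4 in SNDX-5613 replicates 1 to 3. The groups overlapped, and 98.7% of the 12908 gene promoters had a lower mean percentile. Pileup at the summit was 240, 301 and 295 in DMSO and 281, 317 and 53 with the drug, the last in the shallow library. The fold over local background, as the authors' peak caller gave it, was 20.8 to 21.98 in DMSO and 17.6 to 22.6 with SNDX-5613. The difference between groups in mean percentile was 0.602 (98.7 ± 0.728 against 99.3 ± 0.449, SD, n = 3 each, exact permutation p = 0.3), with a limma adjusted p of 0.740. So near the top of the scale a percentile difference is compressed. On the normal scores of ranks that limma fitted, the MEN1 difference was 0.257 (standard error 0.241). Each library had a single summit there, at -131 to -78 bp from the canonical start site, so menin, the target of the drug, is encoded behind a compact and very open promoter whose rank did not differ detectably after treatment.

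The promoter of KMT2A, at chr11:118435384-118436545, was of middling rank. Its percentiles were 73.2, 82.0 and 79.5 in DMSO and 82.9, 81.8 and 77.2 with SNDX-5613, and 47.3% of gene promoters ranked lower. The groups overlapped, with means of 78.3 ± 4.53 and 80.6 ± 3.04 (SD, n = 3 each, exact permutation p = 0.6). Ranked by fold over local background the groups did not overlap, at percentiles of 27.1, 37.9 and 34.7 in DMSO and 41.9, 41.2 and 62.8 with SNDX-5613 (exact permutation p = 0.1). The limma adjusted p was 0.872 by -log10 p and 0.730 by fold. The region was broad, at 932 to 1148 bp in the 5 deeper libraries, with up to 4 summits, and its strongest summit lay at -266 to -223 bp from the start site. In DMSO replicate 2 the caller split it into a distal and a proximal region, and the widths given here are sums over such pieces. The site also lies within 1 kb of a start of the lncRNA gene ENSG00000255384, and signal of the 2 promoters cannot be separated there.

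KMT2B, which encodes the closest relative of MLL1, was the only member whose leading promoter separated the groups when sites were ranked by -log10 p. Ranked by fold over local background, KMT2A did so as well. At chr19:35716825-35718018 the percentiles were 81.4, 91.5 and 82.7 in DMSO and 92.7, 94.1 and 91.7 with SNDX-5613. All 3 treated libraries were above all 3 vehicle libraries, although DMSO replicate 2 came close to the lowest treated one. Across gene promoters, 7.16% had the 3 treated libraries above the 3 vehicle libraries and 7.44% below, so 1 of 8 is near the background. By limma 0.209% of gene promoters were called and 8.63% had an unadjusted p under 0.05, against 0 and 1 of the 8. The means were 85.2 ± 5.53 and 92.8 ± 1.21 (SD, n = 3 each, exact permutation p = 0.1, the smallest that 3 against 3 libraries can give). The limma fit over all 33405 sites gave an unadjusted p of 0.0255 and an adjusted p of 0.434, so the difference did not pass. Pileup was 174, 285 and 224 in DMSO and 252, 270 and 42 with the drug, and the ratio of SNDX-5613 to DMSO after quantile normalization was 1.16 (95% interval 1.004 to 1.335, adjusted p = 0.351 in limma). Ranked by fold over local background instead, the 3 treated libraries were again above the 3 vehicle libraries, at percentiles of 52.9, 52.0 and 80.2 against 32.6, 48.1 and 37.1. By that ranking 2 of the 8 promoters, KMT2A and KMT2B, had the treated libraries above, against 11.8% of gene promoters, and 0 had them below, against 3.32%. At both genes the highest treated percentile by fold came from the shallow library, and the other treated values lay closer to the vehicle ones. Leaving out 1 library at a time gave percentile differences of 4.56 to 10.8.

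PSIP1 had a weaker and more complex promoter. At chr9:15510138-15511542 the percentiles were 71.9, 56.8 and 59.3 in DMSO and 69.0, 60.7 and 70.3 with SNDX-5613, which overlap (exact permutation p = 0.6). Only 25.4% of gene promoters ranked lower. Its region was the widest of the 8, at 1158 to 1260 bp in the deeper libraries, and held 2 to 5 summits. The strongest summit lay at -270 to -249 bp from the start site in the 3 vehicle libraries and in SNDX-5613 replicate 3, but at -33 and -65 bp in SNDX-5613 replicates 1 and 2. In SNDX-5613 replicate 2 the caller split the region, at -572 to 292 and 445 to 832 bp from the start site. Heights of the lesser summits were not compared, and which summit leads was not a stable measure here.

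Among the WRAD genes, RBBP5 ranked highest and WDR5 lowest. RBBP5, which encodes a scaffold that contacts the catalytic domain and the nucleosome, had percentiles of 92.8, 91.2 and 97.01 in DMSO and 92.6, 94.8 and 81.0 with SNDX-5613 at chr1:205121754-205122582. The low value came from the shallow library, where its pileup was 26, or 12.0% of the median of the other 5 libraries, the lowest such share of the 8 promoters. Without that library the percentile difference went from -4.18 to 0.036.

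DPY30, which encodes a small subunit that docks on ASH2L, had percentiles of 88.9, 76.8 and 78.7 in DMSO and 78.9, 85.6 and 88.6 with the drug at chr2:32039358-32040190. The groups overlapped fully (exact permutation p = 0.7). A divergent lncRNA gene, ENSG00000288937, starts 34 bp from DPY30 on the opposite strand, and the single region covers both start sites. ASH2L, which encodes the subunit that binds RBBP5 and DPY30, was the WRAD gene with the lower mean after treatment beside RBBP5. At chr8:38104939-38106125 its percentiles were 86.2, 80.4 and 78.7 in DMSO and 77.0, 75.1 and 81.4 with SNDX-5613, overlapping at the shallow library (exact permutation p = 0.3). WDR5, which encodes the propeller protein that anchors the core to MLL1, had percentiles of 60.8, 67.4 and 42.4 in DMSO and 65.6, 59.1 and 68.5 with the drug at chr9:134135158-134136179. These overlap (exact permutation p = 0.6), and DMSO replicate 3 held the lowest value of any member in any library. WDR5 shares its region with the divergent transcript WDR5-DT, 310 bp away.

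Ordered by mean percentile over the 6 libraries, the promoters ran from MEN1 (99.0) through RBBP5 (91.6), KMT2B (89.0), DPY30 (82.9), ASH2L (79.8) and KMT2A (79.5) to PSIP1 (64.7) and WDR5 (60.6). Of the 7 pairs of neighbours, MEN1 was above RBBP5 in 6 of 6 libraries, by 7.47 on average, and KMT2A above PSIP1 in 6 of 6, by 14.8. The other neighbours changed places in at least 1 library, so their order is within the spread. MEN1 thus ranked highest in every library, and PSIP1 and WDR5 had the lowest means. Genes further apart in the order could differ more, as KMT2B and RBBP5 were each above KMT2A in every library.

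The order depended on what was ranked. By fold over local background, the mean percentile of KMT2A was 40.9 and that of KMT2B 50.5, far below their places by -log10 p, while DPY30 (89.8) stood close to RBBP5 (89.3) and MEN1 (94.1). WDR5 (67.9) stood above ASH2L (62.3) and PSIP1 (59.9). Local background at the summit, recovered from fold and p and so not independent of fold, differed between the promoters. In the 5 deeper libraries its median was 19.9 reads at KMT2B and 16.9 at KMT2A, the highest of the 8, against 4.64 at WDR5 and 6.10 at DPY30. Relative to each library's genome-wide background these are 13.97, 13.2, 3.47 and 4.45 times. Reads were thus denser around the promoters of both MLL genes than around those of WDR5 and DPY30, which were still above the genome-wide background. MEN1, with a median of 12.7 reads, still ranked highest by fold, and PSIP1, at 6.13 reads, ranked well below DPY30. The part of local background in the change of order was not tested.

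**Figure D2:**
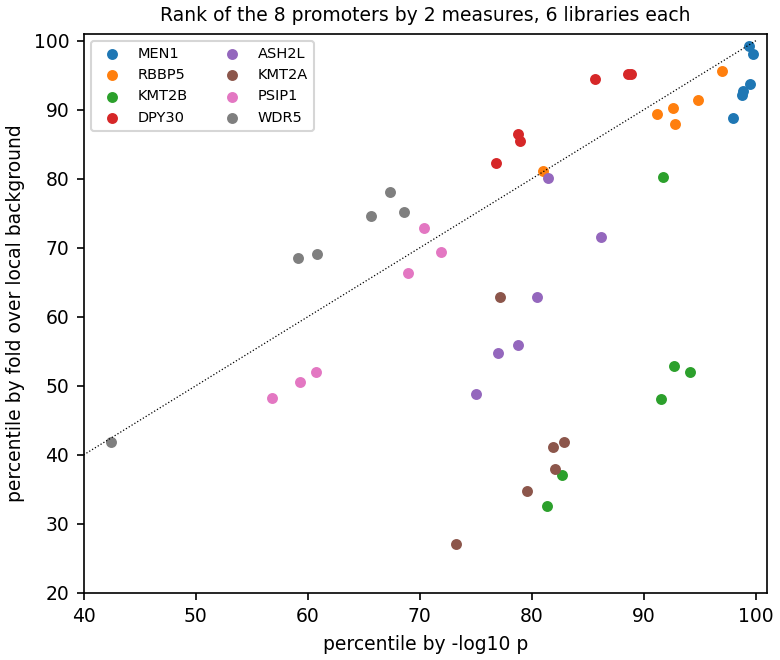
Percentile by -log10 p (horizontal axis) against percentile by fold over local background (vertical axis) for the 8 leading promoter sites, with 1 point for each of the 6 libraries and a dotted line where both are equal. KMT2A and KMT2B lie below the line in every library and DPY30 above it, while MEN1 is high by both measures.

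Position and extent of the open regions were stable for most members. The strongest summit varied over the 6 libraries by 15 bp at WDR5, 21 bp at RBBP5, 43 bp at KMT2A, 46 bp at DPY30, 53 bp at MEN1 and 84 bp at KMT2B. At PSIP1 and ASH2L it varied by 237 and 312 bp, as different summits of the same region led in different libraries. At ASH2L the leading summit was at 279 and 236 bp from the start site in DMSO replicate 1 and SNDX-5613 replicate 3, and at -33 to -10 bp in the other 4. The openings of KMT2A, KMT2B and WDR5 lay almost wholly upstream of the canonical start site, while those of PSIP1, ASH2L and DPY30 spanned it. The annotated WDR5 gene begins upstream of its canonical start, at chr9:134135365, which lies inside the WDR5 site. The KMT2B summit, at -401 to -317 bp, was about as distant as that of RBBP5, at -359 to -338 bp.

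**Figure D3:**
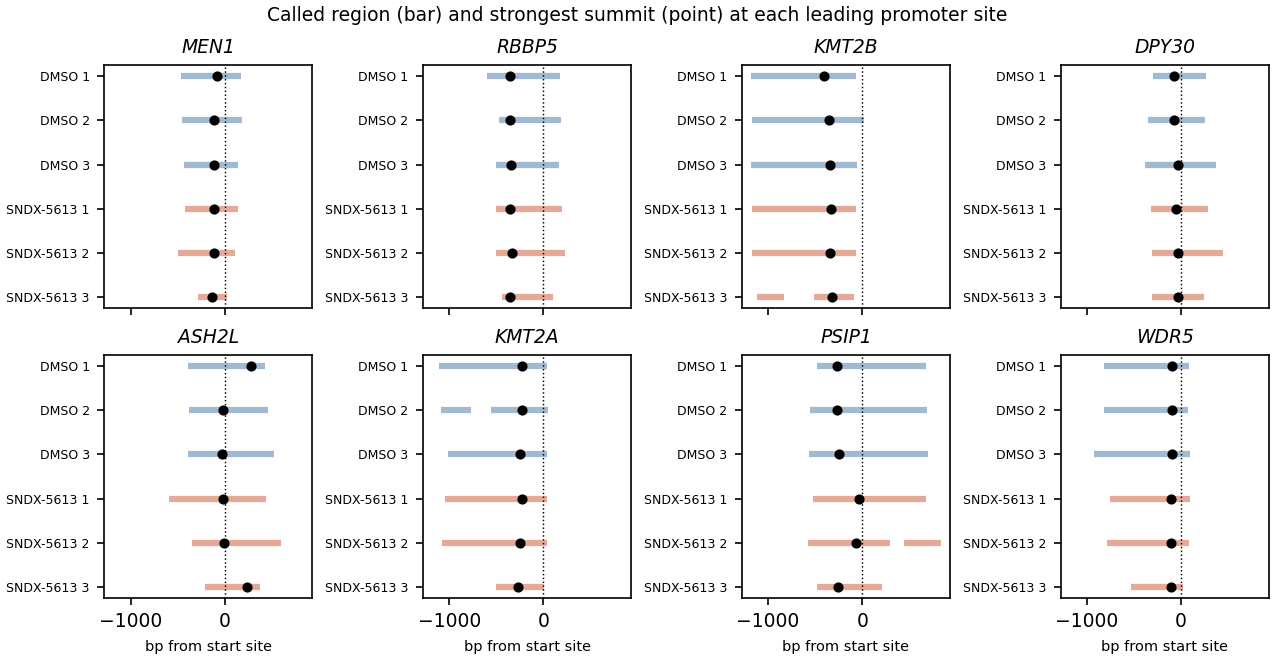
Called regions (bars, DMSO blue, SNDX-5613 red) and strongest summit (black points) of the 8 leading promoter sites in each of the 6 libraries, in bp from the canonical start site (dotted line), with the direction of transcription to the right. Summits hold their place except at ASH2L and PSIP1, and the region of SNDX-5613 replicate 3 is the shortest at each gene.

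The called regions were narrower in SNDX-5613 than in DMSO on average at each of the 8 promoters, by a mean difference from -5.33 bp at ASH2L to -177 bp at WDR5, and the lowest exact permutation p was 0.1 (KMT2B and WDR5). The shallow library had the narrowest region of the 6 at 8 of 8 genes, at 312 bp for MEN1 against 558 to 639 bp and 557 bp for WDR5 against 855 to 1016 bp. Without it the mean difference was -38.3 bp at MEN1, -33.2 bp at KMT2B and -76.0 bp at WDR5, and it was above 0 at the other 5 genes. The part of depth in these widths was not tested.

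Summit pileup gave the size of change, relative to the other sites with a peak in all 6 libraries, that these data would still allow. A change common to all those sites is removed by the scaling. Scaled between libraries by quantile normalization, the ratio of SNDX-5613 to DMSO at the 8 promoters ran from 0.921 at RBBP5 (95% interval 0.771 to 1.100) to 1.16 at KMT2B. It was 1.07 (0.945 to 1.21) at MEN1, 1.02 (0.876 to 1.18) at KMT2A and 0.934 (0.794 to 1.0995) at ASH2L. At the promoters of lowest pileup the ratio was 1.08 (0.868 to 1.35) at PSIP1, 1.11 (0.868 to 1.43) at WDR5 and 1.08 (0.890 to 1.301) at DPY30. The interval included 1 at 7 of 8 promoters. These intervals come from the limma fit and are not adjusted for the number of sites.

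**Figure D4:**
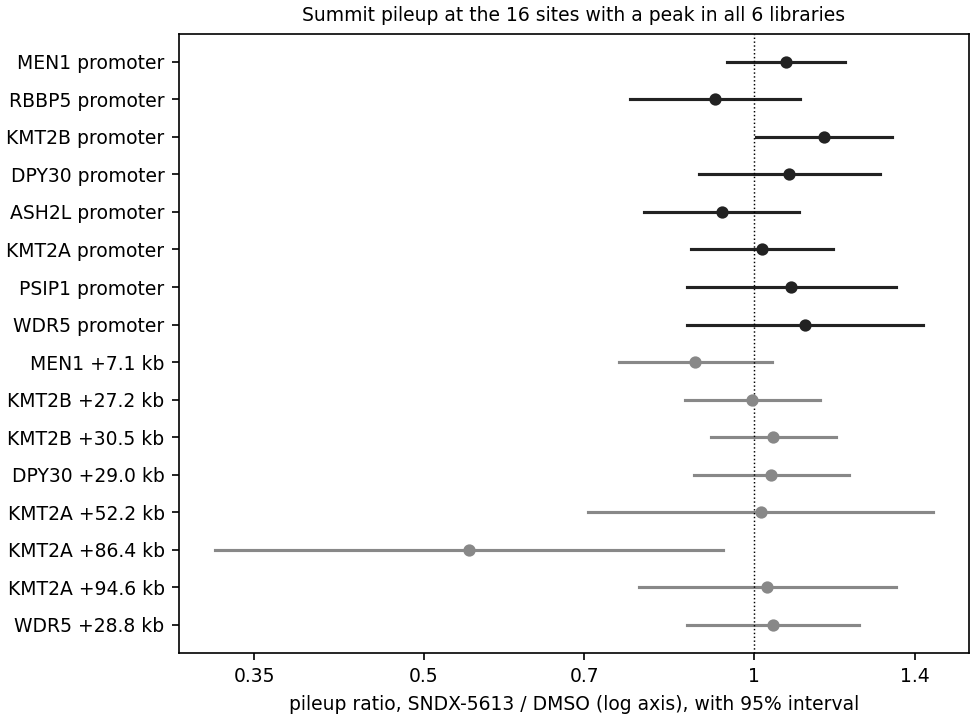
Ratio of summit pileup, SNDX-5613 over DMSO, on a log axis with 95% intervals from limma (n = 3 libraries in each group) at the 16 sites of the 8 loci with a peak in all 6 libraries. Black marks leading promoters and grey other sites, named by distance from the start site; the interval includes 1 at 14 of 16 sites.

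Beyond the promoters, the loci held 42 sites in all, of which 16 had a peak in all 6 libraries, 7 in 2 to 5 and 19 in 1, and 20.1% of all sites in the series were shared by all 6. The 16 were the 8 leading promoters, 4 sites in gene bodies and 4 in the flanks. None of the 16 was called at a Benjamini-Hochberg adjusted p under 0.05 by limma, where 0.222% of the 33405 shared sites were called (0.195% higher and 0.0269% lower with SNDX-5613), and 1 had an unadjusted p under 0.05 (the KMT2B promoter), where 10.1% of shared sites did. In the limma fit of log2 pileup 0 of 16 passed against 1.25% of sites, with 2 at an unadjusted p under 0.05 against 13.6% of sites. Ranked by fold, limma gave 0 of 16 at an unadjusted p under 0.05, against 7.26% of sites. None was gained (a peak in 3 of 3 treated and 0 of 3 vehicle libraries, 0.147% of all sites) and none was lost (the opposite, 1.18%).

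**Figure D5:**
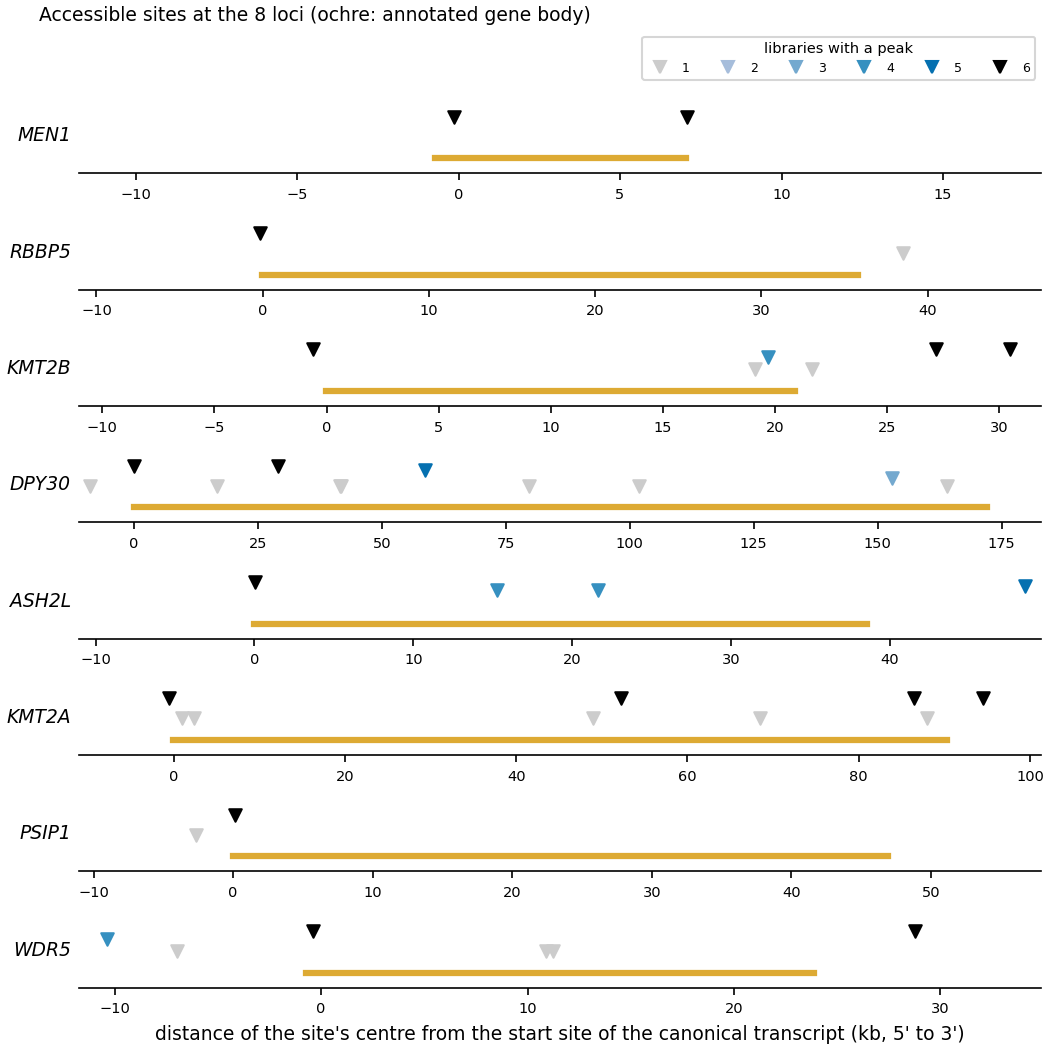
Accessible sites (triangles) at the 8 loci by distance in kb from the canonical start site, drawn 5′ to 3′ of each gene, with the annotated gene body in ochre and height and colour by the number of libraries with a peak, from 1 (grey) to 6 (black). Each gene has a black promoter site, and MEN1, KMT2A, KMT2B and WDR5 each have further sites with a peak in all 6 libraries at or past the 3′ end.

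Of the 8 shared sites away from the promoters, 5 lay within 1 kb of start sites of neighbouring protein-coding or lncRNA genes. Starts of other gene types, such as small RNA genes, were not searched. Downstream of KMT2B, the site at chr19:35748254-35748672, at the start of LIN37, ranked at 85.3, 95.3 and 95.2 in DMSO and 94.9, 96.4 and 93.1 with SNDX-5613. Next to it, chr19:35744690-35745685, at the starts of U2AF1L4 and PSENEN, ranked at 75.6, 74.7 and 74.3 in DMSO and 74.8, 79.2 and 68.8 with the drug. The groups overlapped at both sites. Downstream of KMT2A, and given to complete the 8, chr11:118530512-118531621, at the starts of TMEM25 and TTC36-AS1, ranked at 49.0, 43.6 and 25.2 in DMSO and 37.0, 33.0 and 50.8 with the drug, again with overlap. Inside the annotated DPY30 body, chr2:32010185-32011394 at the MEMO1 start ranked at 72.6, 74.2 and 79.5 in DMSO and 75.1, 79.9 and 76.1 with the drug, also overlapping. The flank of WDR5 held 1 shared site with no protein-coding or lncRNA start within 1 kb, chr9:134164225-134165487. It lay 28774 bp downstream of the WDR5 start. Its percentiles were 79.1, 84.6 and 85.7 in DMSO and 86.6, 89.6 and 71.8 with SNDX-5613, higher than those of the WDR5 promoter in each library, and the groups overlapped.

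At the 3′ end of MEN1 the treated libraries were the lower ones. The site chr11:64802966-64803999 covers the start of MAP4K2 and 484 bp of the last MEN1 exon (3′ UTR), so it cannot be assigned to MEN1. Its percentiles were 80.03, 77.2 and 77.7 in DMSO and 71.4, 72.6 and 74.8 with SNDX-5613, without overlap (exact permutation p = 0.1). The limma adjusted p was 0.669, the pileup ratio was 0.884 (95% interval 0.753 to 1.04), and by fold the groups overlapped. Of shared sites, 8.08% had the 3 treated libraries below the 3 vehicle libraries, against 2 of the 16 here, and 8.54% had them above, against 1 of 16.

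The other such site, and a further exonic one, lie in KMT2A and are described because their values stood out once seen. In the last of the 36 exons of the canonical transcript, within the 3′ UTR, chr11:118522750-118523070 ranked at 50.1, 56.9 and 50.4 in DMSO and 48.8, 44.1 and 0.18 with SNDX-5613. Its pileup was 49, 74 and 63 in DMSO and 58, 52 and 3 with the drug. The value of 3 is the lowest the caller accepted at background in that shallow library, and its summit there lay at 86360 bp from the start site against 86493 to 86499 bp in the other 5. The ratio of 0.550 (95% interval 0.322 to 0.937, adjusted p = 0.309 in limma) thus rests on this library, and the other treated values lie close to the lowest vehicle value. The second site, chr11:118488430-118488934, spans exon 11, in the stretch of the gene where the breaks of MLL1 translocations in leukemia cluster. It was weak but present in all libraries, at 8.27, 20.5 and 27.3 in DMSO and 15.9, 24.0 and 20.1 with SNDX-5613, and the groups overlapped.

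Of the 7 sites found in 2 to 5 libraries, 6 lacked a peak in SNDX-5613 replicate 3. The lowest pileup called in that library at its genome-wide background was 3, and more is needed where local background is higher. Scaled to its depth, the median pileup of the deeper libraries fell below 3 at 3 of these 6 (1.46 to 2.75) and above at 3 (3.88 to 5.34). The ASH2L site chr8:38127038-38127220 scaled to 1.29 and did have a peak in SNDX-5613 replicate 3. The part of depth in presence was not tested. The site of the highest median pileup among the 7 was chr19:35737568-35737793, over exon 34 of KMT2B, with a peak in 3 of 3 DMSO libraries and in SNDX-5613 replicate 2 but not in replicates 1 and 3. Its pileup was 28 to 35 where called. At ASH2L, chr8:38120725-38120878 had a peak in 3 of 3 DMSO libraries and in SNDX-5613 replicate 1 alone of the treated, at a pileup of 9 to 20. Neither meets the rule for a lost site.

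Genes that work with the complex were examined the same way. The 17 companions were HCFC1, HCFC2, KAT8, SETD1A, SETD1B, CXXC1, WDR82, BOD1, BOD1L1, JUND, DOT1L, KDM5A, KDM5B, KDM5C, NFYA, NFYB and NFYC. The list leaves out the COMPASS enzymes MLL3 and MLL4. Of the 17 companions, 16 had a leading promoter in all 6 libraries, and KDM5B did not. By limma 0 of 16 were called, 2 had an unadjusted p under 0.05 (BOD1L1 and HCFC1), and the lowest adjusted p was 0.439, where 0.209% of gene promoters were called and 8.63% had such an unadjusted p. Mean percentiles ran from 57.0 at HCFC1, which encodes a cofactor that binds several H3K4 methyltransferases, to 96.8 at BOD1, with a median of 85.0. HCFC1 was also the 1 companion of 16 with non-overlapping groups, against 14.6% of gene promoters, at a mean of 49.4 in DMSO and 64.6 with SNDX-5613 (exact permutation p = 0.1, limma adjusted p = 0.458). The 3 NF-Y genes were at 85.2 (NFYA), 94.5 (NFYB) and 91.2 (NFYC).

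The difference of mean percentile between SNDX-5613 and DMSO was above 0 at 6 of the 8 members and below 0 at ASH2L and RBBP5, with a median of 2.64. It had a median of 1.47 over the companions and of -0.369 over the promoters of all 12908 genes. The promoters most like MEN1 over the 6 libraries, by root mean square difference of percentile, were the shared promoter of B9D1 and MAPK7 (0.383) and that of CENPA (0.410). For KMT2A they were EDC4 (1.83), CTDSP1 (1.89) and HAUS4 (1.92), all at mean percentiles of 80.1 to 80.7.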

How the data were processed

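Nuclei were processed by Omni-ATAC. The submitters' processing notes name Trim Galore 0.6.7, Bowtie2 2.3.4.1, Picard 2.20.0, SAMtools, deepTools 3.5.4 and MACS2, and hg38. A Tn5 shift, duplicate removal and a blacklist are not given in the sources used here, so unfiltered reads could add peaks in repeats. The deposited peak lists, called per library without pooling, hold the authors' fold enrichment ratio over local background, -log10 p and -log10 q, with a summit score not used. The 2 deposited consensus sets hold a combined -log10 p, of which only regions were used. The authors' read counts and DESeq2 test were not used here.

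Sites are unions of regions on chromosomes 1 to 22, X and Y sharing 1 bp or more. Groups came from the labels, 3 libraries each. Normal scores of ranks by -log10 p at sites shared by all 6 libraries were fitted with limma 3.58.1 (R 4.3.3, trended eBayes), and p-values were adjusted by Benjamini-Hochberg over all of them at 0.05. Exact permutation tests were two-sided. Pileups were solved from fold and p where fold was at least 1.5 and accepted within 0.005 of a whole number, which held for 100% of summits in 5 libraries and 99.9% in SNDX-5613 replicate 3, against 1.33% to 1.62% with p shuffled. Depth as read totals was not analysed here, and each library's background stands in for it. Scripts were tested on simulated data.

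Members and gene lists were chosen with earlier results of these data known. Named genes were the 8 members by leading promoter, sites called or gained or lost, the 5 other shared sites with the highest percentile (the remaining 3 and the sites in 2 to 5 libraries were named after their values were seen), the lowest and highest companions, and the 3 genes most like MEN1 and KMT2A.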

Additional observations from a re-analysis of the deposited data

How the results depend on the processing

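No member site and no companion promoter was called by limma under any of the alternatives run. Of 96 alternative values for the 8 promoter differences, 94 kept their direction, with a smallest adjusted p of 0.239. The alternatives reuse the same 6 libraries on several scales, and the replicate block left the limma estimates as they were. The count of kept directions is therefore not independent support for a direction. The reversed values are within leave-one-out ranges, of -0.137 to 4.25 percentile points at KMT2A (reversed without DMSO replicate 1) and of -6.82 to 0.0361 at RBBP5 (reversed without SNDX-5613 replicate 3). Width differences also crossed 0 on leaving out single libraries, over ranges of -245 to 57.8 bp at KMT2A, -275 to 3.17 bp at PSIP1, -94.3 to 130 bp at ASH2L, -82.0 to 11 bp at RBBP5 and -64.7 to 50.8 bp at DPY30. The fit over all 33405 sites was less stable. It called 74 sites, 0 when ranked by fold (2424 at an unadjusted p under 0.05), 417 on log2 pileup, 49 with promoter sites only, 404 with library weights (added after seeing the data), and 14 to 345 with 1 library left out, the most without SNDX-5613 replicate 3. The members' sites with a peak in all 6 libraries numbered 16, 5 when a peak had to cover 50% of the site, and 16 to 18 with 1 library left out. There was 1 lost site at equal numbers of regions (in DPY30), and 0 to 1 on leaving out a library (in ASH2L without SNDX-5613 replicate 1, in KMT2B without SNDX-5613 replicate 2). The cause of these shifts was not tested. Same-numbered libraries did not deviate together (correlations over sites of 0.0164, 0.00053 and 0.00698), so the numbers were not taken to pair them, although the study describes split dishes. With a replicate block 73 sites and 0 member sites were called. With 3 libraries a group the exact test cannot go below 0.1.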

Other observations

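The deposited consensus sets hold 23 of the 42 sites in both conditions, including all 16 with a peak in every library. The DMSO set alone holds 2, the SNDX-5613 set alone 2, and neither holds 15. The 19 sites seen in 1 library were weak, with a median fold over local background of 3.83, a median width of 148 bp and a median pileup of 10. None of them came from SNDX-5613 replicate 3.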
